A study of Mus musculus with 2 samples.

Results

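Cycling squamous cells of the mouse cervix were taken as cell barcodes with keratin and cell-division transcripts together, and 721 of 16221 deposited barcodes met the rule. A member had at least 200 genes, at most 20% mitochondrial transcripts, at least 5 unique molecular identifiers (UMIs, each counting 1 captured transcript) of Krt5 and Krt14 together, and at least 4 UMIs over 10 cycle genes. The cycle genes were Mki67, Top2a, Ccnb1, Ccna2, Cdk1, Birc5, Ube2c, Tpx2, Cenpf and Aurkb, so the members were chosen on their own values of those genes. The control library gave 424 members and the progesterone library 297. They were set against 2559 control and 5336 progesterone cells that met the same keratin minimum and held 0 UMIs of the cycle genes, called non-cycling here. Another 464 control and 627 progesterone cells had 1 to 3 cycle UMIs and lay between both classes.

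Single-cell RNA sequencing of the cervix was done on 2 libraries, each from 9 pooled mice, so each group has 1 library. All mice were C57BL6/129, aged 7 to 8 weeks, ovariectomised (OVX, which removes the main source of ovarian hormones) and given 2 weeks to recover, in an experiment of 15 days. The OVX control mice were left untreated. The progesterone mice first received daily doses of 100 µg estradiol (E2) on 2 days, as priming, and then carried a 25 mg pellet with a release time of 21 days, at about 1 mg of progesterone per day. Effects of priming, injection, pellet and progesterone cannot be told apart, because no vehicle library was used here. The tissue lay below the transition zone between uterus and cervix. With 1 library per group there is no test between groups, and every interval below is a 95% interval for counting error only, exact Clopper-Pearson for shares, exact Poisson for levels, conditional binomial for ratios and order statistics for medians.

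The squamous lining of the cervix is renewed from its basal layer, where cells bound to the basement membrane divide, and daughters move up, express suprabasal keratins and cornify. A dividing cell first makes the enzymes and histones of DNA replication in G1 and S phase, largely under E2F factors. It then makes the kinases, kinesins and kinetochore proteins of G2 and mitosis, many of them under the DREAM and FOXM1 complexes, which act through CHR elements. Ovarian hormones control the growth and the cornification of this epithelium.

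The label was checked first. Krt5, the partner keratin of Krt14 in basal cells, had a UMI in 100% of members of either library. This follows largely from the keratin minimum, since 98.3% of control and 99.5% of progesterone non-cycling cells had one too. Trp63, the transcription factor that defines stratified epithelium, had a UMI in 53.8% of control and 61.3% of progesterone members. Luminal keratins Krt8 and Krt18 together exceeded Krt5 and Krt14, which the rule requires, in 5 control and 5 progesterone members. The same was read in 69 control (2.7%) and 446 progesterone (8.36%) non-cycling cells. Keratin made up a median of 2.74% of the UMIs of control members and 0.901% of those of progesterone members, and the share of members with at least 1% keratin was 84.9% and 41.8%. Among non-cycling cells that share was 41.3% in control and 27.2% with progesterone. Non-cycling cells thus held more cells with little keratin, and they count in the denominator of the cycling share below. Of all barcodes that met the cycle minimum, 97.2% in control and 92.2% with progesterone also met the keratin minimum. The 12 control and 25 progesterone barcodes that met the cycle minimum under the keratin minimum were not members.

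Member cells were as deep in one library as in the other, with a median of 7395 UMIs in control and 7308 with progesterone, and 2262 genes in both. Non-cycling cells were shallower, at 4555 and 4727 UMIs. Summed over members, the depth was 3293524 UMIs in control and 2312122 with progesterone. The libraries shared 19 barcodes, which included 2 control members and 0 progesterone members. Doublet scoring marked 25 control and 21 progesterone members (5.9% and 7.07%), which were kept except in an alternative. The immune list summed to 134 summed counts per 1000000 UMIs (CPM) in control members and 55.8 CPM in progesterone members, with Ptprc in 4.72% and 0.337% of cells. The fibroblast list held 2 UMIs in control and 7 UMIs in progesterone members, with Col1a1 or Dcn in 2 and 7 cells and Col1a2 and Col3a1 at 0. The endothelial list held 5 and 1 UMIs, all of Pecam1, with Cdh5 and Kdr at 0. The luminal list of 6 genes, 1 of them at 0, summed to 722 and 1938 CPM, and the erythrocyte list of 2 genes to 245 and 3071 CPM. In non-cycling cells the luminal list summed to 1281 and 2669 CPM. The part of these markers in the results below was not tested.

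Promoters of 6 phase genes are shown because their transcripts separated members from non-cycling cells most clearly within the G1/S and G2/M lists. They are the 3 genes of each list with the highest lower bound of cycling over non-cycling. Each sequence is the 150 bases before the RefSeq start of the gene on build GRCm38.p6, written 5′ to 3′ along the gene. Capitals mark a CCAAT box (CCAAT), a CHR element (TTTGAA or TTCGAA) or an E2F site (TTTCCCGC, TTTGGCGC, TTTCGCGC or TTTGCCGC) on either strand. Matches that share bases were each counted. From the G1/S list came Pclaf, a partner of the replication clamp (chr9:65890173-65890322, plus strand), Rad51ap1, a factor of recombination repair (chr6:126939588-126939737, minus strand), and E2f8, a repressor of the E2F family (chr7:48881597-48881746, minus strand). From the G2/M list came Nusap1, a spindle protein (chr2:119618148-119618297, plus strand), Ttk, the spindle checkpoint kinase MPS1 (chr9:83834539-83834688, plus strand), and Hmmr, a spindle assembly factor (chr11:40733438-40733587, minus strand).
Pclaf: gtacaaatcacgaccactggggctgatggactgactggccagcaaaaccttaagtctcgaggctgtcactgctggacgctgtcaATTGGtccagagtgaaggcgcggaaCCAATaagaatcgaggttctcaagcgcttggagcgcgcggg
Rad51ap1: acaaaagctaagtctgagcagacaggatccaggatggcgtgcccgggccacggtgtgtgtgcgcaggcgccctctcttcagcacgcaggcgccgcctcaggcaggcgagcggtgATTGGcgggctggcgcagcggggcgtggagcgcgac
E2f8: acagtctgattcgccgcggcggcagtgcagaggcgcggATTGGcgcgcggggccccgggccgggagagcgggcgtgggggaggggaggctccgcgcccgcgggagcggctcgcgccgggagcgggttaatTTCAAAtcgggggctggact
Nusap1: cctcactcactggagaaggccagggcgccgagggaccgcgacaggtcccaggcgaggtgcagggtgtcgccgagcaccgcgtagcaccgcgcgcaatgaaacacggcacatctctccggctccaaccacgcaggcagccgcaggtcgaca
Ttk: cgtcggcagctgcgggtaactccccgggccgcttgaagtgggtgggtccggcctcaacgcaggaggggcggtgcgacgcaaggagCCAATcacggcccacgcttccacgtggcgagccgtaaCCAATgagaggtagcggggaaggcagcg
Hmmr: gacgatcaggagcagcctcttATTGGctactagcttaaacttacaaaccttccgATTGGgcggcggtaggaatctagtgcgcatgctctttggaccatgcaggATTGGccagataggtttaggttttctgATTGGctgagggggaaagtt

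Both Pclaf and Ttk held 2 CCAAT boxes, Hmmr held 4, and Rad51ap1 held 1. E2f8 held a CCAAT box and a CHR element that starts 20 bases before the gene. Nusap1 held none of these letters in this window. Of the 50 G2/M genes 45 had a promoter in the table, and 73.3% of these held a CCAAT box, against 63.9% of the 36 matched promoters of the 48 G1/S genes and 25.3% of the 27025 promoters in all. A CHR element stood in 26.7% of G2/M, 11.1% of G1/S and 9.89% of all promoters. The E2F letters were in 19.4% of G1/S, 2.22% of G2/M and 1.26% of all promoters. CHR and CCAAT occurred together in 24.4% of G2/M promoters, 5.56% of G1/S promoters and 2.52% of all. These are matches of letters and no binding was measured.

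A smaller share of keratin-selected cells was cycling in the progesterone library. The share was 12.3% in control (11.2% to 13.4%, 424 of 3447 cells) and 4.74% with progesterone (4.23% to 5.3%, 297 of 6260 cells). With each cell thinned to 3000 UMIs, which left out 918 control and 1394 progesterone keratin-selected cells that were shallower, it was 10.4% (9.22% to 11.7%) and 4.14% (3.58% to 4.76%). The intervals did not overlap at either depth. Over all barcodes past the gene and mitochondrial limits, whatever their keratin, the shares were 9.16% and 3.49%. Cells under the keratin minimum met the cycle minimum in 0.914% of cases in control and 0.844% with progesterone. Where keratin had to reach 1% of a cell's UMIs, an alternative chosen after seeing the data, the shares were 20.5% and 6.99%. The spread between mice was not measured, since 9 mice form 1 library.

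The threshold did not fall in a gap. Exactly 3 cycle UMIs were read in 54 control and 54 progesterone cells, just outside the rule, and exactly 4 in 55 and 30 cells, just inside it. Genes of the G2/M list outside the rule summed to 2609 CPM at 3 UMIs and 2948 CPM at 4 UMIs in control, and to 2106 and 2658 CPM with progesterone. At 0 cycle UMIs they summed to 1125 and 936 CPM. Cells next to the threshold were thus closer to each other than to the non-cycling cells. Members had a median of 11 cycle UMIs in control and 16 with progesterone, and a maximum of 120 and 232. As a reading of free RNA in droplets, cells marked by immune genes and under the keratin minimum were thinned to 1000 UMIs beside the members. Their share is called the background below. These cells may make some of the transcripts themselves and were shallower than members, so the background does not measure free RNA alone. Of 569 control and 731 progesterone immune-marked cells, with median depths of 719 and 887 UMIs, 210 and 300 were deep enough, as were 419 and 290 members. A cycle gene was then seen in 8.57% of control and 7.67% of progesterone immune-marked cells, against 79.2% and 82.8% of members. The members were chosen on these genes, so their share follows from the rule and is no check of it.

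Layer was read from Col17a1, a collagen of the hemidesmosomes that anchor basal cells, and from Krt10 and Krtdap, made once cells have left the basal layer. These genes took no part in the rule. Members with Col17a1 and no Krt10 or Krtdap were 21.7% of control members (17.9% to 25.9%, 92 of 424) and 40.7% of progesterone members (35.1% to 46.6%, 121 of 297). Members with both kinds of transcript were 50.9% and 33.3%, those with Krt10 or Krtdap only 16.5% and 10.8%, and those with none 10.8% and 15.2%. The suprabasal genes differed in direction: Krtdap had a UMI in 64.2% of control and 36.4% of progesterone members, but Krt10 in 14.6% and 20.9%. The difference in layer classes between libraries thus rests on Krtdap and was not read in Krt10. In non-cycling cells the Col17a1-only share was 13.9% in control and 41.8% with progesterone. Control members were thus above the control cells around them in this share, and progesterone members were close to theirs. Among the 392 control and 264 progesterone members that could be thinned to 3000 UMIs, the Col17a1-only shares were 20.9% and 40.9%, and those of members with both kinds 30.1% and 12.9%. At 1000 UMIs, Col17a1 was read in 22.7% of control and 23.1% of progesterone members, and in 0% and 4.33% of immune-marked cells. Krt10 or Krtdap was read in 36.5% and 17.6% of members and in 2.38% and 1.67% of immune-marked cells. The Col17a1-only intervals overlapped between libraries where keratin had to reach 1% of UMIs (20%, 16.0% to 24.5%, and 29.8%, 22.0% to 38.7%) and without cells holding other types' markers (22.3%, 14.4% to 32.1%, and 28.6%, 11.3% to 52.2%).

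Read the other way, the share of cycling cells was highest in the Col17a1-positive classes in control. Among control cells thinned to 3000 UMIs, 16.6% of Col17a1-only cells were cycling (12.8% to 21.0%), as were 17.0% of cells with both kinds (13.5% to 21.0%). The control share was 8.44% of cells with Krt10 or Krtdap only (6.73% to 10.4%) and 6.63% of cells with none (4.99% to 8.61%). With progesterone the shares were 4.68% (3.74% to 5.76%), 3.76% (2.4% to 5.59%), 4.61% (3.16% to 6.48%) and 3.46% (2.59% to 4.51%) in the same order, and all 4 intervals overlapped. Without thinning the progesterone shares were 4.63% (3.86% to 5.51%), 7.69% (6.29% to 9.28%), 4.85% (3.34% to 6.78%) and 2.65% (1.94% to 3.53%). Those intervals did not all overlap, so the likeness of the classes depended on thinning. Control shares without thinning were 17.5%, 28.3%, 6.42% and 4.3%. The gap between libraries was widest in Col17a1-positive cells. Whether the order of layers differed between groups of mice was not tested.

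**Figure D1:**
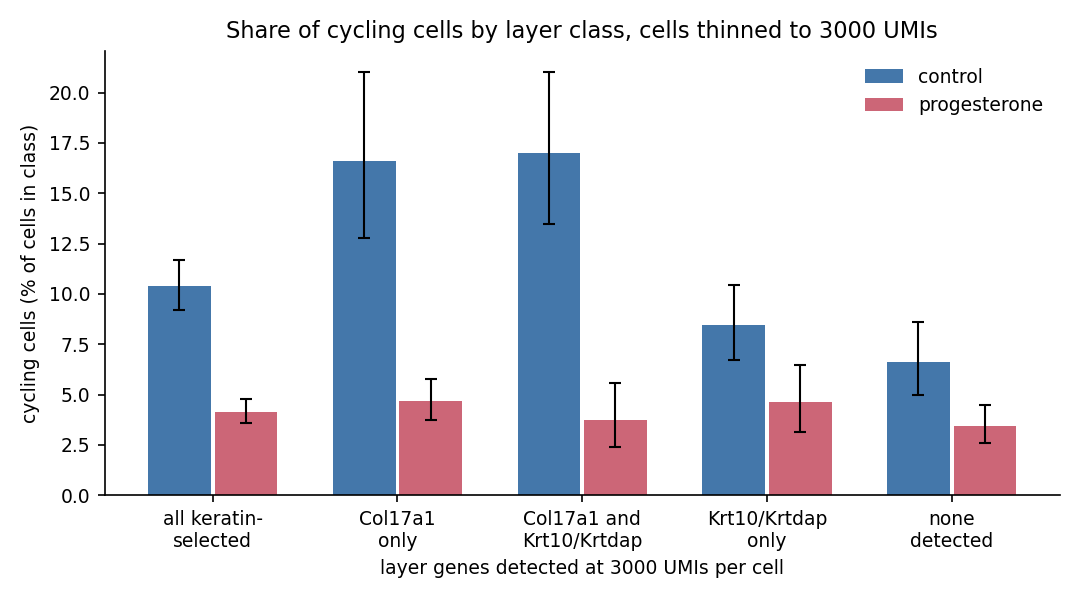
Share of cycling cells (%, y axis) among all keratin-selected cells and in 4 layer classes (x axis), in the control (blue) and progesterone (red) library, with each cell thinned to 3000 UMIs; error bars are 95% Clopper-Pearson intervals. Control bars reach 16.6% and 17.0% in the Col17a1-positive classes, while progesterone bars stay between 3.46% and 4.68%.

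Phase was read from 48 G1/S and 50 G2/M genes, the rule genes left out. Since the rule genes peak in G2 and mitosis, cells in G1 or early S phase are under-represented among members by construction. All members had at least 1 phase UMI. The median member held 21 G1/S and 38 G2/M UMIs in control, and 20 and 47 with progesterone. G1/S transcripts made up a median of 28.0% of a member's phase UMIs in control (25% to 30.5%) and 23.4% with progesterone (19.4% to 28.9%), and these intervals overlap. Members with more G1/S than G2/M transcripts were 122 of 424 in control (28.8%, 24.5% to 33.3%) and 78 of 297 with progesterone (26.3%, 21.4% to 31.7%). The balance forms a continuum, with 74 control and 57 progesterone members between 40% and 60%. By layer, Col17a1-only members had a median balance of 26.2% in control and 22.2% with progesterone, and members with both kinds of transcript 30.4% and 28.6%.

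**Figure D2:**
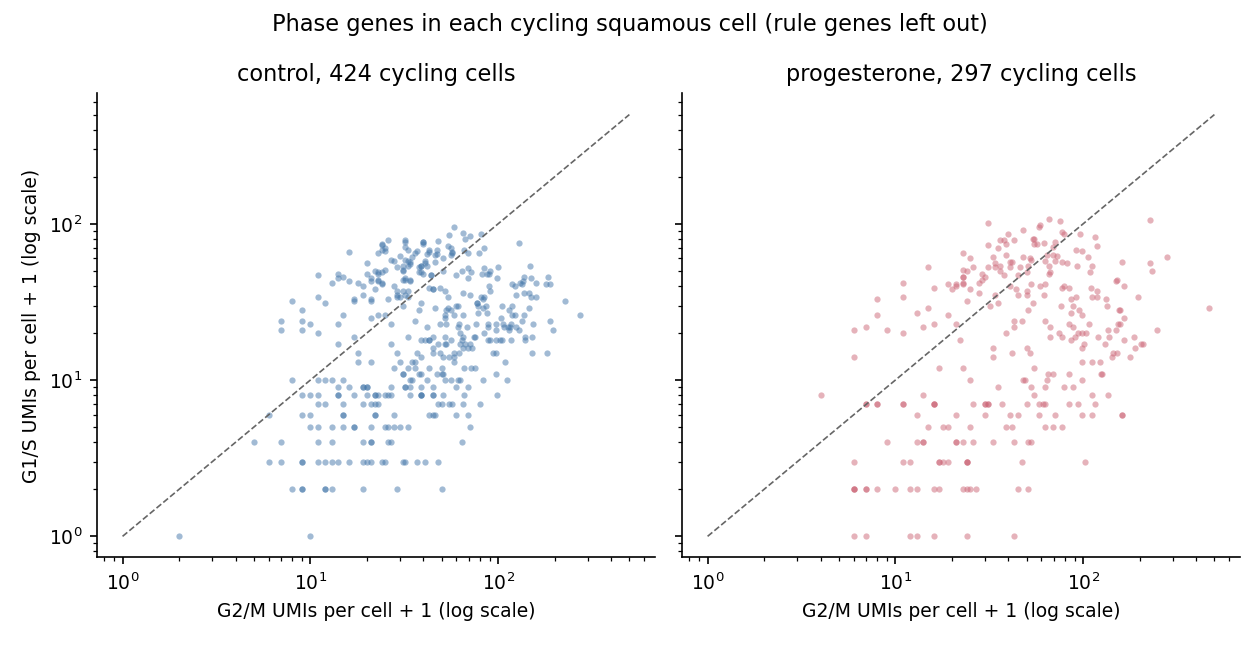
G1/S UMIs (y axis) against G2/M UMIs (x axis) of each cycling cell, 1 added to both, on log scales, for 424 control (left) and 297 progesterone (right) cells; the dashed line marks equal numbers. In both libraries most points lie under the line, and 122 control and 78 progesterone cells lie above it.

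Members were called G1/S-leaning or G2/M-leaning by which list held more of their phase UMIs, so levels of list genes describe that split. Mcm6, a subunit of the replicative helicase and a member of the G1/S list, was at 181 CPM in G1/S-leaning and 27.6 CPM in G2/M-leaning control members, and at 143 and 31.1 CPM with progesterone. Rule genes took no part in the split. Ccnb1, cyclin B1, which drives entry into mitosis, was higher in G2/M-leaning members, at 30.6 and 196 CPM in control and 11.9 and 146 CPM with progesterone. Cenpf, a kinetochore protein, was at 73.1 and 466 CPM in control and at 109 and 781 CPM with progesterone. Ccne2, cyclin E2 of the G1 to S step and a G1/S list gene, stood at 27.6 and 0.439 CPM in control and 25.3 and 3.05 CPM with progesterone. Replication histones, also outside the split, summed to 3188 CPM in G1/S-leaning and 2657 CPM in G2/M-leaning control members, but to 1826 and 3860 CPM with progesterone. The histone order was opposite between the libraries, a difference that was not tested.

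Members against non-cycling cells describe the rule as much as the biology, so these values are given with no test. Of 11442 genes read in both libraries, 534 (4.67%) were at least 2-fold higher in members in both and 345 (3.02%) at least 2-fold lower in both. The higher genes held 45 of 48 G1/S genes, 48 of 50 G2/M genes and 31 of 36 measured replication histones. Pclaf was at 251 CPM in control members and 5.96 CPM in control non-cycling cells, and at 271 and 2.23 CPM with progesterone. Hist1h1b, a linker histone made in S phase, was at 411 and 583 CPM in members and 2.32 and 3.12 CPM in non-cycling cells, although its near-identical relatives make single histone genes uncertain. Nusap1 was at 92.0 and 174 CPM against 0.31 and 0.408 CPM. Aspm, which positions the spindle poles, was at 58.3 and 115 CPM against 0.232 and 0.186 CPM. Hmmr was at 106 and 130 CPM against 0.697 and 0.557 CPM. The other genes of this order were Ttk, Sapcd2, Pimreg, Hist1h2ap, Nuf2, Knl1, Mxd3 and Kif15, of which Nuf2 and Knl1 belong to the outer kinetochore.

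The 8 named genes that were lower in members were Lcn2, Ifitm1, Psca, Sprr2d, Clca3b, Sprr2f, Mal and Ppbp. Lcn2, an iron-binding defence protein, was at 176 CPM in control members and 1685 CPM in control non-cycling cells, and at 16.4 and 133 CPM with progesterone. Ifitm1, an interferon-induced membrane protein, was at 138 and 1502 CPM in control and 10.4 and 89.3 CPM with progesterone. Psca was at 97.2 and 563 CPM in control and 3.89 and 110 CPM with progesterone. Sprr2d, a precursor of the cornified envelope, was at 202 and 2040 CPM in control and 0.865 and 30 CPM with progesterone. Single cells held much of the UMIs in control members, with 83.3% for Ppbp, 50% for Psca, 36.9% for Ifitm1, 36.8% for Sprr2d and 29.4% for Lcn2. Layer moves with this comparison, as given above, and its part was not tested.

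Cyclins of G1 did not follow the rule genes alike. Ccnd1, cyclin D1, which couples growth signals to the cycle, was at 135 CPM in control members and 60.4 CPM in control non-cycling cells, but at 127 and 187 CPM with progesterone. Ccnd2, cyclin D2, was at 68.9 and 67.4 CPM in control and at 130 and 322 CPM with progesterone. In members, Ccnd1 differed by 0.943-fold between libraries (0.811 to 1.1) and Ccnd2 by 1.89-fold (1.58 to 2.25). In non-cycling cells the same ratios were 3.1 and 4.78. Within Col17a1-only cells, the Ccnd1 ratio was 0.684 in members (0.511 to 0.916) and 1.85 in non-cycling cells (1.55 to 2.21). In this layer class Ccnd1 was at 160 CPM in members and 102 CPM in non-cycling cells in control, and at 109 and 189 CPM with progesterone. At 1000 UMIs Ccnd1 was read in 12.4% of control and 11.4% of progesterone members, and in 8.1% and 10.3% of immune-marked cells. Ccnd2 was read in 6.21% and 12.1% of members and in 5.71% and 10% of immune-marked cells, so both cyclins lay near the share of immune-marked cells with progesterone, and Ccnd2 in control too. Of the 26 genes of the cyclin and regulator list, 13 were at least 2-fold higher in members in both libraries, against 4.67% of all genes. Among them were Ccnb2, Foxm1, Ccnf, Cdc25c and E2f8. Ccne1, cyclin E1, was at 14.6 CPM in control and 6.92 CPM in progesterone members.

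Inhibitors of the cyclin-dependent kinases moved in different directions. Cdkn1a, p21, was at 121 CPM in control members and 37.2 CPM in progesterone members, a ratio of 0.308 (0.241 to 0.389), and at 169 and 50.1 CPM in non-cycling cells. It was seen in 185 control members and 58 progesterone members. In Col17a1-only members Cdkn1a was at 53.8 and 37.5 CPM, a ratio of 0.698 with an interval from 0.418 to 1.17 that includes no difference. At 1000 UMIs it was read in 7.88% of control and 2.07% of progesterone members, but in 11.4% and 12.7% of immune-marked cells, so its share in members lay at or below that of immune-marked cells in both libraries. Cdkn1b, p27, was at 44.6 and 77.0 CPM in members, 1.72-fold higher (1.38 to 2.16), and 1.72-fold higher in non-cycling cells. Cdkn2d, p19, was at 36.1 and 65.7 CPM in members against 4.8 and 5.42 CPM in non-cycling cells. Cdkn2c, p18, was at 6.68 and 20.3 CPM in members, 3.04-fold higher (1.8 to 5.3). At 1000 UMIs Cdkn1b was read in 4.53% of control and 8.28% of progesterone members, and in 5.71% and 11.7% of immune-marked cells. Cdkn2d was read in 3.1% and 4.83% of members and in 1.9% and 9.33% of immune-marked cells. Cdkn1b in both libraries and Cdkn2d with progesterone were thus not above the share of immune-marked cells. Whether those cells make these inhibitors themselves, Cdkn1a among them, was not tested. Of the 7 inhibitors 6 had at least 20 UMIs.

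Between libraries within members, 857 of 10024 genes (8.55%) were at least 2-fold higher with progesterone and 591 (5.9%) at least 2-fold lower. In non-cycling cells 1541 of 13057 genes (11.8%) were higher and 860 (6.59%) lower. When mitochondrial and ribosomal protein genes and the 20 most abundant genes were left out of the total, the counts in members became 1174 higher and 432 lower and those in non-cycling cells 2002 and 712. With the mean of per-cell CPM, non-cycling cells gave 1096 higher and 1025 lower genes. In members the excess of higher genes did not hold in every setting. It turned to 400 higher and 444 lower at 3000 UMIs per cell, to 293 and 674 without cells holding other types' markers, and to 616 and 627 where keratin had to reach 1% of UMIs. With luminal markers not used for the removal, an alternative chosen after seeing the data, the counts were 848 higher and 562 lower. The total without the most abundant genes moved the median log2 ratio of all genes in members from 0.05 to 0.20, so list medians below are given relative to it. Both comparisons use cells of the same 2 libraries and are no independent evidence for each other.

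Mitotic genes were higher in progesterone members. The median log2 ratio of the 50 G2/M genes lay 0.47 above that of all genes under both totals and 0.52 above it with per-cell CPM. Of these genes 8 (none lower) were at least 2-fold higher, against 8.55% of all genes. A ratio above 1 was read in 43 of the 50, against 5372 of all 10024 genes. Hjurp, the chaperone of the centromeric histone CENP-A, was at 60.7 CPM in control and 156 CPM in progesterone members, 2.56-fold higher (2.15 to 3.06), and was also 2.4-fold higher in non-cycling cells. Psrc1, a spindle microtubule protein, was at 8.5 and 30.3 CPM. Ect2, which starts cytokinesis through RhoA, was at 27.0 and 54.5 CPM, and Nek2, a centrosome kinase, at 14.9 and 33.3 CPM. The other 4 were Ckap2, Cdca2, Gas2l3 and Gtse1, and all 8 were named after their values were seen. In non-cycling cells Cdca2 was 3.68-fold (2.14 to 6.78) and Gtse1 2.66-fold (1.39 to 5.61) higher too. The non-cycling intervals of Psrc1, Ect2, Nek2, Ckap2 and Gas2l3 included 1. Among the 10 rule genes, Cdk1, the mitotic kinase, was at 65.6 and 160 CPM, 2.45-fold higher (2.06 to 2.91), Aurkb at 25.8 and 51.0 CPM and Cenpf at 345 and 586 CPM. Ccnb1, its cyclin, went the other way, at 145 and 107 CPM, 0.739-fold (0.631 to 0.863). Birc5 and Ccna2 differed by 0.962-fold and 1.03-fold, with intervals that include 1. These ratios come with the higher number of cycle UMIs per progesterone member given above, and levels chosen by a common threshold are not free of it.

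Replication genes were near the all-gene median. The 48 G1/S genes had 0 called in either direction, against 8.55% higher and 5.9% lower of all genes. Their median lay 0.07 above that of all genes under both totals and 0.03 below it with per-cell CPM (-0.03). The 6 MCM subunits summed to 526 CPM in control and 430 CPM in progesterone members, a ratio of 0.818 (0.756 to 0.885). The 4 genes of nucleotide supply, Tyms, Dut, Rrm1 and Rrm2, summed to 599 and 665 CPM, a ratio of 1.11 (1.04 to 1.19). The 11 genes of fork and clamp summed to 930 and 914 CPM, a ratio of 0.983 (0.929 to 1.04). The 7 kinetochore genes of the G2/M list summed to 438 and 601 CPM (1.37-fold, 1.27 to 1.48) and 5 cytokinesis genes to 500 and 753 CPM (1.5-fold, 1.41 to 1.61), while the 6 mitotic kinases and regulators of the anaphase-promoting complex differed by 1.13-fold (1.04 to 1.23). These role groups were made after values were seen, and some genes count in more than 1 of them. Of 43 measured replication histones, 3 were higher and 3 lower, near the shares over all genes (8.55% and 5.9%).

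**Figure D3:**
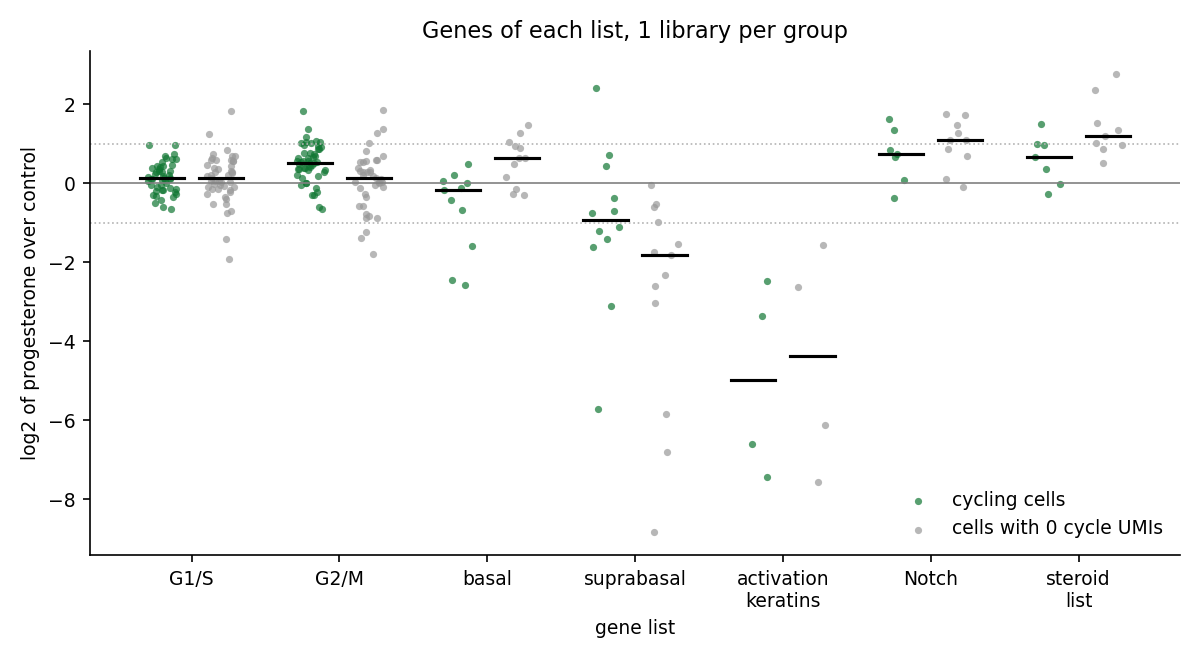
Log2 of progesterone over control CPM (y axis) for each measured gene of 7 lists (x axis), in cycling cells (green) and cells with 0 cycle UMIs (grey); horizontal bars are list medians and dotted lines mark a 2-fold difference. The G2/M genes of cycling cells lie mostly above 0 with 8 past 2-fold, the G1/S genes lie near 0, and all 4 activation keratins lie below -1 in both classes.

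The keratins of activated epithelium were the lowest list with progesterone. All 4 were at least 2-fold lower in members, against 5.9% of all genes, and all 4 in non-cycling cells, against 6.59%. Krt6a was at 2471 CPM in control members and 241 CPM in progesterone members, 10.3-fold lower (9.41 to 11.2). It was detected in 337 of 424 control members and 97 of 297 progesterone members. Krt17 was at 1532 and 276 CPM, 5.55-fold lower (5.11 to 6.04). Krt16 was at 1432 and 14.7 CPM, 97.4-fold lower (69.6 to 141), and Krt6b at 635 and 3.46 CPM, 184-fold lower (93.0 to 426). Single cells held 16.6% of the Krt16 and 27.2% of the Krt6b UMIs of control members, and Krt6a and Krt6b are close relatives whose reads can be split wrongly. Col17a1-only members kept the direction, with Krt6a at 611 and 91.0 CPM and Krt17 at 772 and 227 CPM, whereas Krt17 in Col17a1-only non-cycling cells was at 518 and 494 CPM. Krt16 was read at 1000 UMIs in 18.9% of control members and 7.62% of control immune-marked cells, above the background.

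Several small proline-rich genes, precursors of the cornified envelope, were also among the lowest with progesterone. Sprr2f was at 647 CPM in control and 15.1 CPM in progesterone members, and Sprr2a3 at 339 and 8.65 CPM. Sprr2d was at 202 and 0.865 CPM and Sprr2b at 52.8 CPM and 0 UMIs, at least 40.7-fold lower against a floor of 3 counts over the progesterone members. Of the Sprr2b UMIs 89.7% came from 1 control member, and Sprr2 genes are near-identical copies, so single members of that family are uncertain. Spink12, a protease inhibitor, was at 133 and 0.432 CPM, and Mt4, a metallothionein of stratified epithelium, at 31.0 CPM and 0 UMIs, at least 23.9-fold lower, with 47.1% of its control UMIs in 1 cell. In control immune-marked cells at 1000 UMIs, Sprr2d reached 6.19% against 3.82% of control members, and Sprr2b 0.952% against 0.716%, so neither reading in members was above background. Sprr2f reached 9.52% against 22.0%.

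In the suprabasal list 6 of 12 measured genes were at least 2-fold lower in members and 1 was higher, against 5.9% and 8.55% of all genes, and its median lay 0.99 below that of all genes (-0.99). Krtdap was at 651 and 243 CPM in members and 717 and 205 CPM in non-cycling cells. Dmkn, dermokine, was at 914 and 421 CPM, Sbsn, suprabasin, at 176 and 57.1 CPM, and Sprr1a at 424 and 183 CPM. Cnfn, cornifelin, was at 11.2 CPM and 0 UMIs, at least 8.66-fold lower, with 70.3% of its control UMIs in 1 cell. It was read at 1000 UMIs in 0.477% of control members and 2.86% of control immune-marked cells, so its control level was not above background. Krt10 was at 115 and 88.7 CPM in members and at 350 and 176 CPM in non-cycling cells. Of the Krt10 UMIs of control members 31.7% came from 1 cell. A Krt10 UMI was seen in 14.6% of control and 20.9% of progesterone members, so its lower level with progesterone was not a lower share of cells. Krt13, a keratin of internal stratified epithelia, was at 516 and 694 CPM in members, 1.34-fold higher (1.25 to 1.44), but at 1825 and 1200 CPM in non-cycling cells. Krt4, its partner, was at 2.73 and 15.1 CPM in members, 5.54-fold higher (2.61 to 13.1), from 9 and 35 UMIs. In non-cycling cells Krt4 was at 22.0 and 15.2 CPM, 0.689-fold (0.591 to 0.805).

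Genes of basal attachment separated into a pair of groups. Col17a1 was at 279 CPM in control and 249 CPM in progesterone members, Krt15 at 2940 and 2945 CPM and Dst, the plakin of the hemidesmosome, at 353 and 367 CPM. In control non-cycling cells these genes were lower, with Col17a1 at 103 CPM, Krt15 at 1804 CPM and Dst at 197 CPM, while progesterone non-cycling cells had 249, 2530 and 377 CPM. Lama3 and Lamb3, which code for laminin chains of the basement membrane, were lower with progesterone. Lama3 was at 65.9 CPM in control and 10.8 CPM in progesterone members, 6.09-fold lower (4.02 to 9.63). Lamb3 was at 121 and 39.8 CPM, 3.04-fold lower (2.42 to 3.85). Of 11 measured basal genes 3 were at least 2-fold lower, against 5.9% of all genes. Lama3 and Lamb3 were among them, and both were named after their values were seen.

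Lama3 transcripts were spread over cells, in 140 control and 21 progesterone members and at most 12% of a library's UMIs in 1 cell. In non-cycling cells both genes were closer between libraries, at 26.4 and 21.3 CPM for Lama3 and 39.2 and 35.2 CPM for Lamb3. Layer moves with that comparison, so it was repeated within Col17a1-only cells. There Lama3 stood at 60.3 and 11.4 CPM in members (0.189-fold, 0.0837 to 0.387) and at 42.4 and 30.7 CPM in non-cycling cells (0.724-fold, 0.545 to 0.976). Lamb3 was at 117 and 54.6 CPM in members and 109 and 53.2 CPM in non-cycling cells, so for this chain both classes differed alike, 0.465-fold and 0.486-fold. In immune-marked cells at 1000 UMIs, Lama3 was read in 0% of cells in both libraries. Itga6, the integrin that binds laminin, was at 371 and 274 CPM in members.

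**Figure D4:**
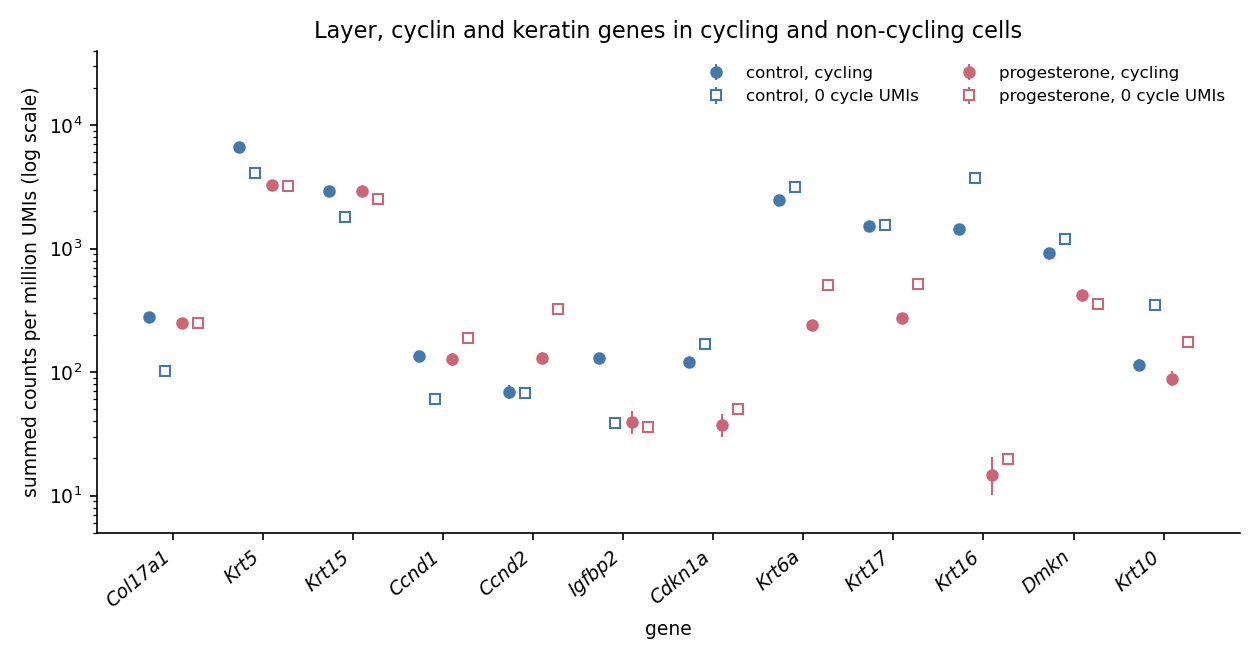
Summed CPM on a log scale (y axis) of 12 layer, cyclin and keratin genes (x axis) in cycling cells (filled circles) and cells with 0 cycle UMIs (open squares) of the control (blue) and progesterone (red) library, with 95% Poisson intervals. Ccnd1 is higher in control cycling cells (135 CPM) than in control non-cycling cells (60.4 CPM) and lower with progesterone (127 against 187 CPM), and Krt16 in cycling cells is at 1432 CPM in control and 14.7 CPM with progesterone.

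Growth factor lists held calls in both directions in members. Of 8 measured genes of the insulin-like growth factor list 2 were higher and 2 lower, and of 6 measured genes of the EGFR list 2 were higher and 1 lower, against 8.55% and 5.9% of all genes. Igfbp2, a carrier of insulin-like growth factors, was at 129 CPM in control and 39.4 CPM in progesterone members, 3.29-fold lower (2.62 to 4.17), while non-cycling cells had 39.0 and 35.9 CPM. In Col17a1-only members it was at 83.1 and 45.5 CPM, and at 1000 UMIs it was read in 0% of immune-marked cells of either library. Hes1, a target of Notch signalling, was at 50.1 and 128 CPM in members, 2.56-fold higher (2.11 to 3.11), and Notch1 at 68.9 and 123 CPM. Of 7 measured Notch genes 2 were at least 2-fold higher, Hes1 and Hey1, and 0 lower, against 8.55% and 5.9% of all genes. Hes1 was read at 1000 UMIs in 2.39% of control and 12.4% of progesterone members, and in 2.38% and 2.33% of immune-marked cells, so only its progesterone share stood above them. Jag2, a Notch ligand, was at 78.6 and 60.5 CPM in members but at 32.1 and 68.0 CPM in non-cycling cells. Erbb3, a receptor of the EGFR family, was at 11.2 and 35.0 CPM and the ligand Hbegf at 19.1 and 3.46 CPM. Hbegf was read in 1.19% of control members and 0.952% of control immune-marked cells, near the background.

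Pgr and Esr1 were read in a larger share of members than of immune-marked cells in both libraries, and Nr3c1 in a smaller share. Whether immune-marked cells make Nr3c1 themselves was not tested, so its share in them cannot be taken as a level of free RNA. At 1000 UMIs Pgr was seen in 3.58% of control and 3.45% of progesterone members, and in 0.476% and 0.333% of immune-marked cells. Esr1 was seen in 10.5% and 12.4% of members and in 0.476% and 4.33% of immune-marked cells, and Nr3c1 in 5.01% and 5.86% against 6.19% and 12.7%. Pgr, the progesterone receptor, was at 36.4 CPM in control and 29.8 CPM in progesterone members, a ratio of 0.819 with an interval from 0.6 to 1.11. In non-cycling cells it was at 33.1 and 64.1 CPM. Esr1, the estrogen receptor, was at 105 and 134 CPM in members and at 80.8 and 164 CPM in non-cycling cells. Nr3c1, the glucocorticoid receptor, was at 39.2 and 62.3 CPM in members. Of 7 measured genes of the steroid list 1 was called higher and 0 lower in members, against 8.55% and 5.9% of all genes. In non-cycling cells 6 of 9 were called higher, against 11.8% of all genes, and the difference between the classes was not tested. The Pgr level in progesterone members lay below that of their non-cycling neighbours, at a cycling over non-cycling ratio of 0.466, and at 1.1 in control.

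The genes with the highest ratios toward progesterone were mostly those of secretory cells or blood. Clca1, Tff1, Muc5b and Agr2, products of mucous cells, were at 374, 288, 282 and 139 CPM in progesterone members and at 1.52, 1.52, 1.82 and 1.82 CPM in control members. At 1000 UMIs, Muc5b was read in 7.93% of progesterone members and 17.7% of progesterone immune-marked cells, Clca1 in 6.21% and 12.3%, Tff1 in 4.83% and 15.3% and Agr2 in 8.28% and 8%. Shares in members were therefore at or near background for these 4 genes. Hbb-bt, a globin, had 71.8% of its 688 UMIs in 1 progesterone member, Scgb3a1 96.7% of 60 and Gp2 67.9% of 56. Hbb-bt was read in 1.72% of members and 4.33% of immune-marked cells.

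A few genes of this group stood above the background. Adh7, an alcohol and retinol dehydrogenase of surface epithelia, was at 3.34 CPM in control and 104 CPM in progesterone members, 31.1-fold higher (17.1 to 63.1), and in 11 and 128 cells. At 1000 UMIs it was read in 8.62% of progesterone members and 1.33% of immune-marked cells. Sv2b, a vesicle glycoprotein, was at 3.34 and 80.4 CPM, 24.1-fold higher (13.2 to 49.1), in 11 and 113 cells, and was read in 8.62% of members and 0.333% of immune-marked cells. In non-cycling cells Adh7 was at 14.9 and 138 CPM and Sv2b at 1.24 and 71.6 CPM. Adh1 was at 26.4 CPM with progesterone from 61 UMIs, and was read in 2.41% of members and 2% of immune-marked cells. Krt18, a keratin of simple epithelia, was at 109 and 590 CPM in members, 5.4-fold higher (4.8 to 6.08), and was read in 35.5% of progesterone members and 10% of immune-marked cells. Epcam, an epithelial adhesion molecule, was at 180 and 640 CPM. Whether a luminal transcript came from the member itself or from a joined droplet was not tested.

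Gm10036 and Tubb3 were low with progesterone in members and in other cells. Gm10036, a predicted gene, was at 450 CPM in control and 2.6 CPM in progesterone members and was seen in 352 and 6 cells. In immune-marked cells at 1000 UMIs it was read in 14.3% of control and 0.333% of progesterone cells, so the difference was also read in these droplets. Whether the immune-marked cells made it or held it as free RNA was not tested. The part of Gm10036 in other results was not tested. Tubb3, a tubulin, had 117 UMIs in 73 control members and 0 UMIs with progesterone, at least 27.4-fold lower, and was also at 0 UMIs in progesterone non-cycling cells. Of the immediate early list, which rises when tissue is dissociated, 1 of 10 measured genes was lower and 0 higher in members. The shares over all genes were 5.9% and 8.55%, and Jun was at 154 and 157 CPM.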

How the data were processed

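The authors deposited raw UMI counts per gene and barcode for both libraries, as whole numbers per the file headers. Cell Ranger 3.0.2 and mm10 are named in the submitters' processing notes, and the annotation is not given in the sources used here. Cells were selected by the rule in the report, with no clustering, so doublets were kept and left out only in an alternative (Scrublet in scanpy 1.11.5, 0.8% per 1000 cells). For levels, the UMIs of all cells of a class in 1 library were added up and expressed per 1000000 (CPM). Genes needed at least 20 UMIs over the compared sums, and log2 ratios had 0.5 added to both sums. Intervals are at 95% and were tested on simulated data (Python 3.11.15, scipy 1.17.1). The simulated gene sums were independent Poisson counts, as the ratio intervals assume. They do not test the intervals where single cells hold many of a gene's UMIs.

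The members and lists were chosen with earlier results of these data known. Named genes were the 10 highest and 10 lowest with progesterone in members by the interval bound nearest to 1 with at least 50 UMIs, the 12 highest and 8 lowest of members over non-cycling cells, the rule genes, layer genes, cyclins and inhibitors, and the 4 most abundant of each other list. Promoters came from RefSeq (GRCm38.p6), and genes on chromosome 18 were not used for them. Alternatives were stricter cell limits, other keratin and cycle minimums, thinning to 3000 UMIs, removal of cells with markers of other types, other totals and other count minimums. A few measured genes are not reported here.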

Additional observations from a re-analysis of the deposited data

How the results depend on the processing

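Alternatives numbered 98 values, of which 73 stayed within the main 95% interval or within 1.5 times the main count. The control share of cycling cells stayed above the progesterone share, and its Col17a1-only share below, in all 9 alternatives on cells. The shares in control and progesterone were 13.9% and 5.61% with a cycle minimum of 3, 9.43% and 3.91% with 6, 10.4% and 4.14% at 3000 UMIs, 11.1% and 3.95% without cells holding other types' markers, and 20.5% and 6.99% with keratin at 1% of UMIs (chosen after seeing the data). The control share was 13.9% with a keratin minimum of 10. The removal of marked cells took away most cells, since the luminal list is read in squamous cells, and left 94 and 21 members. It gave a Col17a1-only share of 28.6% with progesterone and median phase balances of 34.7% and 18.8%. Keratin at 1% gave 29.8% Col17a1-only members with progesterone. In control these settings gave 22.3% and 20%, with intervals that overlap those of progesterone. Removal with luminal markers not used, also chosen after seeing the data, left 376 control and 255 progesterone members. Their Col17a1-only shares were 22.1% and 40%, with intervals that do not overlap.

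Genes past 2-fold in members numbered 844 at 3000 UMIs (400 higher, 444 lower), 945 in Col17a1-only cells, 4666 with no minimum and 840 with a minimum of 50. In non-cycling cells they numbered 1264 without marked cells, 1575 in Col17a1-only cells and 5226 with no minimum. Members over non-cycling cells gave 238 without marked cells, 371 in Col17a1-only cells and 1509 with no minimum. The cause was not tested, other than fewer cells or genes. No paired analysis was possible because each group has 1 library.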
